A study of Rattus norvegicus with 119 samples.

Results

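The red cell cluster of miR-144 and miR-451 was measured in rat bladder urothelium by the probes for rno-miR-144, rno-miR-144* and rno-miR-451, which are 3 of the 301 miRNAs of the deposited table and were taken by name. The study asked how miRNA levels in the bladder lining respond to 2 insulin-sensitising drugs, pioglitazone and rosiglitazone. Male and female Sprague-Dawley rats received a daily oral dose of vehicle (0.5% methylcellulose), pioglitazone hydrochloride at 16 or 63 mg/kg, or rosiglitazone maleate at 10 mg/kg, for 3, 28 or 90 days, and all 24 combinations of sex, treatment and day were profiled. The rats carried no transgene, and their age is not stated in the labels. They were bled out from the abdominal aorta under isoflurane 1 day after the last dose, and the urothelium was scraped from the bladder wall and snap frozen, so the samples can hold cells other than urothelium. Of 119 arrays, 1 per rat, 3 are labelled as failing quality control and were left out (1 male vehicle and 2 female pioglitazone 16 arrays, all day 28). Groups then held 5 rats, except vehicle and pioglitazone 16 males at day 28 with 4 each and pioglitazone 16 females at day 28 with 3.

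In mammals, miR-144 and miR-451 are cut from one primary transcript that the red cell factor GATA1 switches on, and both accumulate as erythroblasts mature. They remain abundant in circulating red cells, which have no nucleus. The miR-451 hairpin is unusual in that its stem is too short for Dicer and is cut by Argonaute 2. In mice, loss of the cluster leaves red cells more sensitive to oxidative stress. The other arm of the miR-144 hairpin gives miR-144*, now named miR-144-5p.

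The mature strands are shown because the array reads them and not the hairpins; each sequence is from RefSeq, 5′ to 3′, with the seed (bases 2 to 8) in capitals. All 3 names matched an entry, and all lie on the plus strand of chromosome 10 in build GRCr8.
rno-miR-144 (miR-144-3p, chr10:63459446-63459465): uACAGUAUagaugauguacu
rno-miR-144* (miR-144-5p, chr10:63459409-63459431): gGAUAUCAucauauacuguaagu
rno-miR-451 (miR-451-5p, chr10:63459585-63459606): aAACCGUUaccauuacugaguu
None of these seeds was shared by another of the 693 mature rat miRNAs in the reference set of sequences, which is not the table of measured miRNAs. The members differ from each other in the seed. Bases 2 to 7 of miR-144 recur in miR-101a-3p and miR-101b-3p.

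The hairpins follow, with the mature strands read by the array in capitals, to show how closely the members are packed.
Mir144 (chr10:63459397-63459479): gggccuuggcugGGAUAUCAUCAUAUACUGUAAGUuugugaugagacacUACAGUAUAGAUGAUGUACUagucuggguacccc
Mir451a (chr10:63459569-63459640): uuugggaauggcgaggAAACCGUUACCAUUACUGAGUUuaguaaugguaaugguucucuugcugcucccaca
The hairpins are 83 and 72 bases long and 89 bases apart, with 0 annotated genes between them, and Flot2 and Eral1 are the flanking genes. Each member was measured by its own probe.

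Levels are given as the authors' log2 intensities, in which 1 unit is a doubling of brightness, and levels of different members are not set against each other because their probes differ. Over the 116 arrays, miR-144 ran from 3.22 to 10.35 with a median of 6.24. The median of miR-451 was 8.20, with a lowest value of 3.38 and a highest of 11.95. For miR-144* the range was 3.20 to 5.78 around a median of 3.94, and 61 of 116 arrays had it within 1 log2 unit of the dimmest miRNA on the array, so it lay close to the floor. On 8 arrays miR-144 was that close to the floor, and on 11 miR-451 was. Within groups the SD was 1.16 for miR-144, 0.44 for miR-144* and 2.05 for miR-451. Of all 301 miRNAs, only 8 varied more between rats of a group than miR-451.

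**Figure D1:**
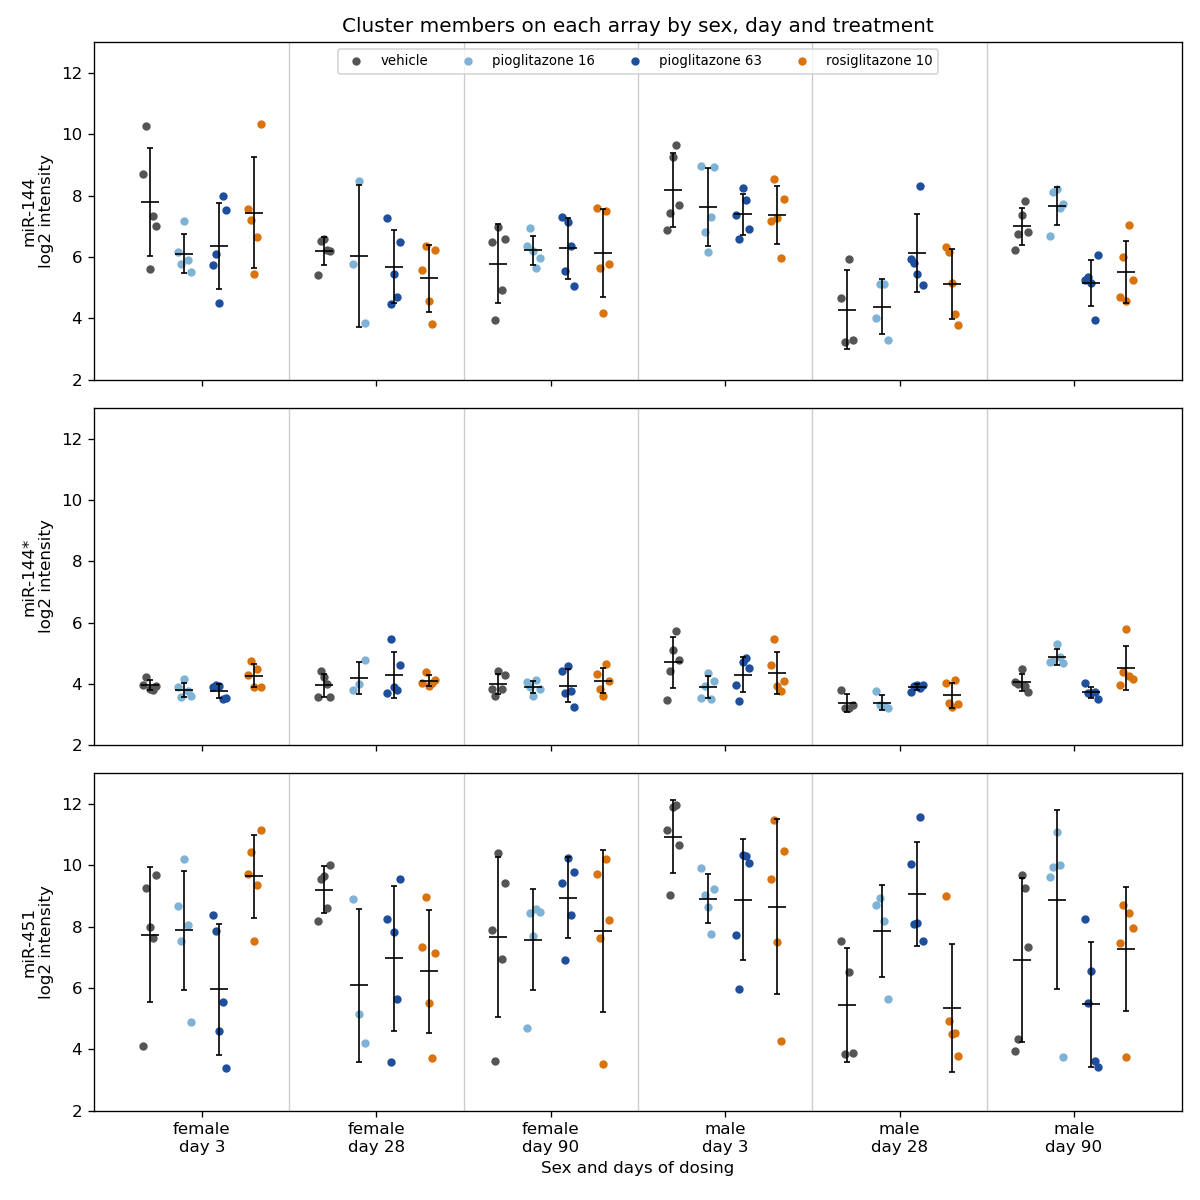
Log2 intensity of miR-144, miR-144* and miR-451 on each of 116 arrays (1 point a rat), by sex, days of dosing and treatment (mg/kg/day), with the group mean and SD in black. miR-451 spreads over 6 or more log2 units within several groups, while miR-144* stays between 3.20 and 5.78.

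The tissue label was checked against 10 listed epithelial miRNAs, whose median array values ran from 6.57 for miR-182 to 13.48 for miR-200a. Those of miR-200b (13.32) and miR-205 (12.90) were also bright, while miR-183 had 8.07 and miR-96 8.66. Muscle miR-143 had a median of 11.52 and reached 16.87, so muscle signal was strong on some arrays. Arrays differed in overall brightness, with medians over all miRNAs from 3.70 to 5.66. In 23 of 116 arrays the median was under 4.5, a limit chosen after seeing the data. Of these arrays 3 were from day 3, 14 from day 28 and 6 from day 90. In those 23 arrays miR-451 had a median of 3.90 and lay below 5 in 16, against a median of 8.48 and 7 of 93 below 5 in the brighter arrays. For miR-144 the medians were 4.58 and 6.49, and for miR-144* they were 3.73 and 3.98. Across arrays, with group means subtracted, the Pearson correlation with the array median was 0.64 for miR-451, 0.27 for miR-144 and 0.03 for miR-144*; the array median itself includes every miRNA and shares its labelling and scan. The called differences that were lost without the dim arrays are given with those values.

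**Figure D2:**
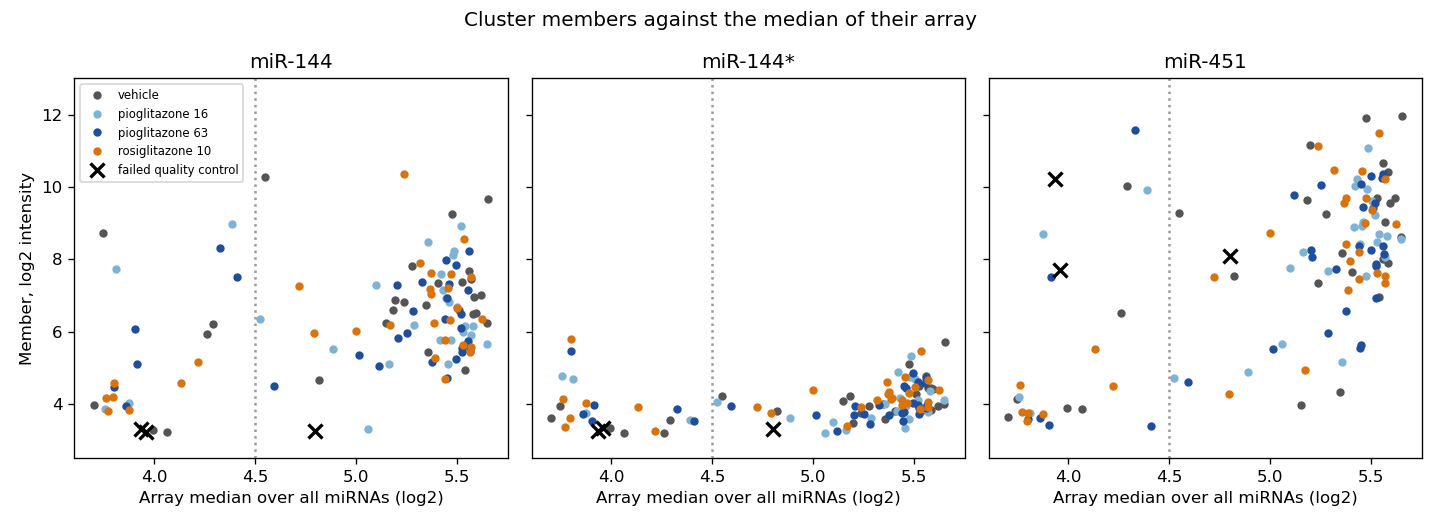
Log2 intensity of each member (vertical) against the median of its array over 301 miRNAs (horizontal), with points coloured by treatment (mg/kg/day), crosses for the 3 arrays that failed quality control and a dotted line at 4.5. To the left of the line miR-451 is mostly near 4, though 1 male given pioglitazone 63 reached 11.58 there, and miR-144 and miR-144* follow the array median less closely.

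Averaged over treatments and both sexes, miR-144 was highest at day 3. Its mean was 7.29 at day 3, 5.39 at day 28 and 6.22 at day 90. It fell by 1.89 log2 units from day 3 to day 28 (SE 0.27, adjusted p = 1.2e-08) and was lower by 1.07 at day 90 than at day 3 (log2 difference -1.07, SE 0.26, adjusted p = 0.00107). All 8 combinations of treatment and sex had a lower miR-144 mean at day 28 than at day 3, by 0.07 to 3.91 units, and 6 of 8 had a lower mean at day 90. The exceptions were the pioglitazone 16 groups, whose means were highest at day 90 by a small margin (6.22 against 6.10 at day 3 in females and 7.66 against 7.63 in males). These tests, like all those below, are two-sided limma tests adjusted by the Benjamini-Hochberg method over the 301 miRNAs, with 0.05 as the threshold.

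miR-451 also fell from day 3 to day 28, from a mean of 8.57 to 7.06 (log2 difference -1.51, SE 0.47, adjusted p = 0.00516), but not in every combination: 5 of 8 had the lower mean at day 28. At day 90 its mean was 7.57, and the difference did not pass (95% interval -1.90 to -0.11, adjusted p = 0.136). miR-144* fell by 0.28 units at day 28 (SE 0.10, adjusted p = 0.0191) and was level with day 3 at day 90 (difference 0.01, 95% interval -0.19 to 0.20). All 3 members were thus called lower at day 28, where 36.9% of all miRNAs were called lower and 50.5% in either direction. At day 90 only miR-144 of the members was called lower, beside 11.6% of all miRNAs called lower and 15% in either direction. The miR-451 call at day 28 was lost without the dim arrays (-0.92, adjusted p = 0.121) and with the array median in the model (-0.52, adjusted p = 0.253), and miR-144* turned to 0.17 higher when arrays were centred on their medians and to 0.14 higher under quantile normalization. The miR-144 calls at both days were kept under every alternative run.

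Part of the listed miRNAs linked with red cells or with their maturation were also lower at day 28, where 36.9% of all miRNAs were called lower. Among 6 of 8 listed miRNAs that are plentiful in red cells or reticulocytes, several of them broadly expressed, 4 fell at day 28 and 0 rose. Of these, miR-92a fell by 0.91 and miR-25 by 0.75. The median difference of this list was -0.74, against -0.25 for all miRNAs, and at day 90 none of the 6 passed (median -0.35, against -0.01). miR-486 and miR-363 of the list were not analysed here. A separate list held 6 measured miRNAs described to act in erythroid maturation, and it was not a list of miRNAs plentiful in red cells. Of these 4 fell at day 28 (median of the list -0.88). Among them were miR-222, which restrains the stem cell factor receptor Kit, by 1.29 and miR-221 by 1.08. At day 90, 0 of them passed.

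Markers of other cell types fell at day 28 as well. Of all miRNAs 36.9% were called lower there and 50.5% in either direction, with a median difference of -0.25. Of the 6 measured muscle miRNAs 5 fell (median difference -2.11), with summed levels of 6.12 to 15.24 at day 28 and 9.60 to 16.97 at day 3. Of the 4 leukocyte miRNAs 3 fell (median -0.62), with summed levels of 6.65 to 10.95 at day 28 and 8.10 to 11.10 at day 3. This list shares miR-150 and miR-223 with the erythroid maturation list, so counts of the 2 lists overlap here and below. Both endothelial strands, miR-126 and miR-126*, fell (median -0.84; 4.94 to 12.65 at day 28 and 8.55 to 12.28 at day 3). Of 10 epithelial miRNAs 2 rose and 0 fell. At day 90 none of these lists had a member that passed, where 11.6% of all miRNAs were called lower. Their median differences were -0.34 for muscle, 0.33 for leukocyte, 0.10 for endothelial and 0.22 for epithelial miRNAs, against -0.01 for all. Not passing does not show that these miRNAs were unchanged. The part of these other cells in the miR-144 and miR-451 differences was not tested, and in scraped tissue fewer cells of a type cannot be told apart from less RNA per cell. Days of dosing, the age of the rats and any step done day by day cannot be told apart either.

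**Figure D3:**
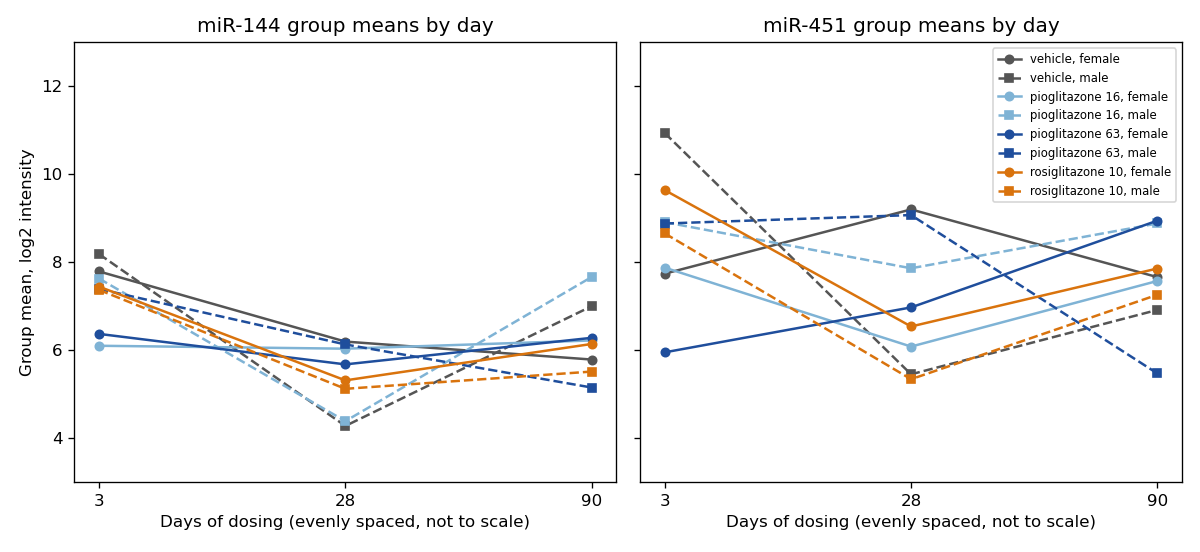
Group means of miR-144 (left) and miR-451 (right) in log2 intensity at 3, 28 and 90 days of dosing, 1 line for each treatment (mg/kg/day) and sex. All 8 miR-144 lines are lower at day 28 than at day 3, while for miR-451 3 of 8 are higher.

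Against the vehicle rats of the same sex and day, 2 of 54 tests of a member passed, and both were in males at day 28 on pioglitazone 63. In that comparison 37.2% of all 301 miRNAs were called, 65 as higher and 47 as lower. No member passed in any of the 9 comparisons in females, where differences lay between -1.69 and 0.49 for miR-144, -0.18 and 0.33 for miR-144*, and -3.12 and 1.90 for miR-451. In 7 of those 9 comparisons 0% of all miRNAs were called, and in 2 it was 1 miRNA (0.332%). Males at day 3 had 0% called on either pioglitazone dose and 3.65% on rosiglitazone, with no member among them. These intervals were wide: the 95% interval reached 2.54 to 2.93 units to either side for miR-451, 1.44 to 1.66 for miR-144 and 0.56 to 0.64 for miR-144*. At an unadjusted p under 0.05 there were 9 of 54. Of all 301 miRNAs, 3 to 140 had such a p, depending on the comparison. Averaged over the 6 combinations of sex and day, no treatment passed for any member, with differences of -0.20, -0.37 and -0.39 for miR-144 on pioglitazone 16, pioglitazone 63 and rosiglitazone (SE 0.30 to 0.31), where 0%, 10.6% and 11.3% of all miRNAs were called.

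**Figure D4:**
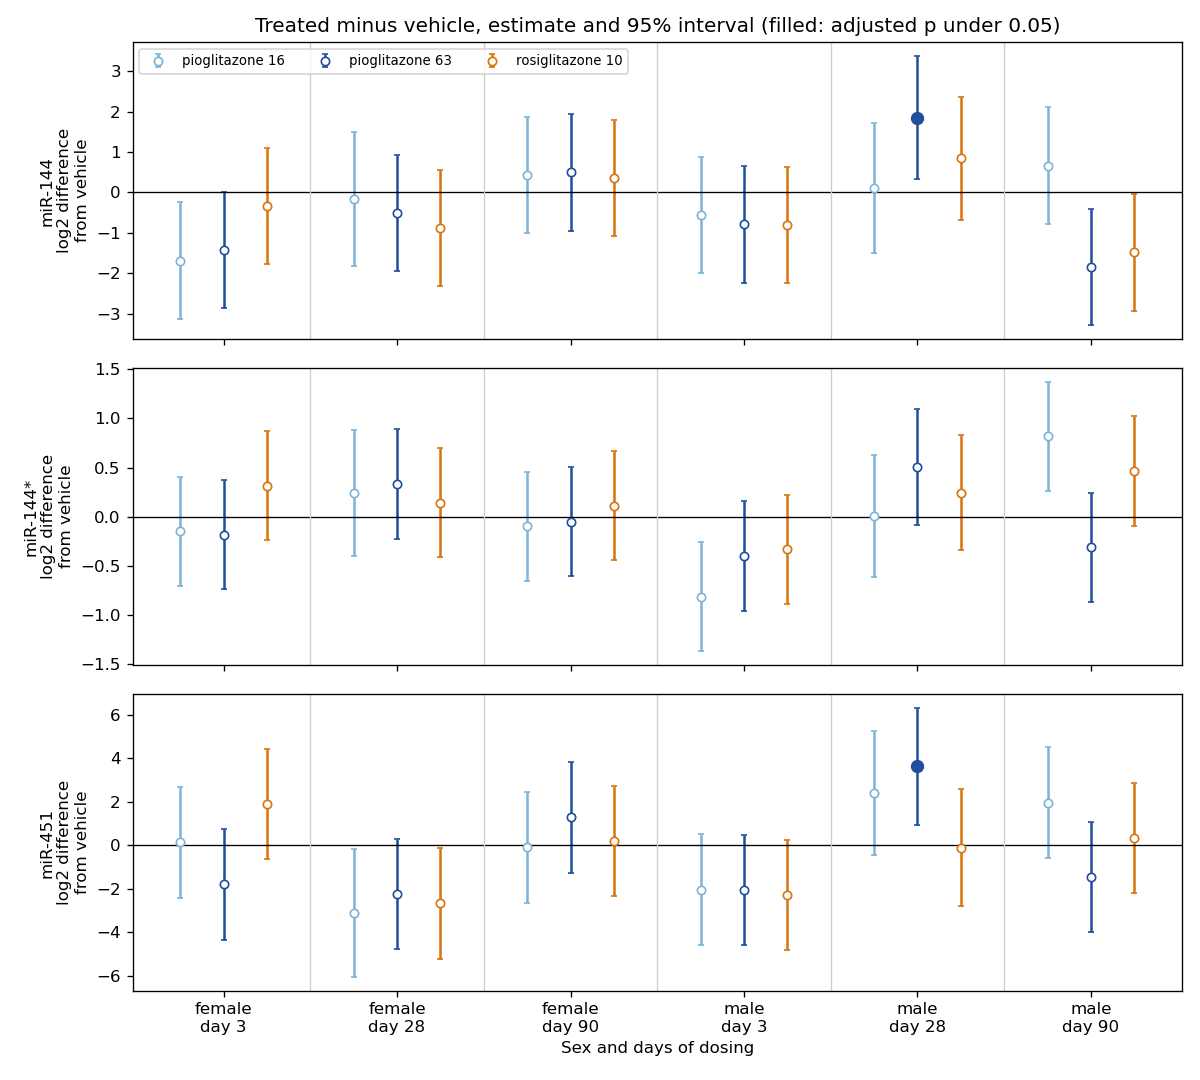
Difference in log2 intensity between each treatment (mg/kg/day) and the vehicle rats of the same sex and days of dosing, with its 95% interval from limma, for miR-144, miR-144* and miR-451 (vertical scales differ). Filled points have an adjusted p under 0.05; they are the miR-144 difference of 1.85 and the miR-451 difference of 3.62 in males at day 28 on pioglitazone 63.

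In males at day 28, miR-451 and miR-144 were higher on pioglitazone 63 than on vehicle. The vehicle males had miR-451 levels of 7.54, 3.86, 6.51 and 3.90, and the pioglitazone 63 males 10.06, 8.07, 8.13, 11.58 and 7.52. One treated rat lay just below the highest vehicle rat, so the groups overlapped. miR-451 was higher by 3.62 log2 units on pioglitazone 63 (SE 1.36, adjusted p = 0.0283). For miR-144 the vehicle males had 4.67, 3.22, 5.93 and 3.28, and the treated males 5.95, 5.82, 5.46, 8.32 and 5.10. The vehicle values of 3.22 and 3.28 lay within 1 log2 unit of the dimmest miRNA on their arrays, close to the floor. Only 1 vehicle rat, at 5.93, reached into the treated range, but only 2 of the 5 treated rats lay above it. The miR-144 difference was 1.85 (SE 0.77, adjusted p = 0.0485). miR-144* was 0.51 higher (SE 0.30, adjusted p = 0.177) and did not pass. Of all 301 miRNAs 37.2% were called in this comparison, 65 as higher and 47 as lower, so a call was common there.

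The vehicle males at day 28 were themselves dim: 3 of their 4 arrays had a median under 4.5, against 2 of 5 on pioglitazone 63. Without the dim arrays, which leaves 1 vehicle male, the differences were 1.21 for miR-451 (adjusted p = 0.782) and 1.07 for miR-144 (adjusted p = 0.69). Adding each array's median to the model gave 2.38 (adjusted p = 0.0733) and 1.56 (adjusted p = 0.101), and with replicate number as a block the miR-144 call was also lost (1.85, adjusted p = 0.0557). It was lost too with arrays centred (1.29), under quantile normalization (1.41) and with only these groups fitted (1.85, adjusted p = 0.0986). The miR-451 call was lost without vehicle replicate 3 (3.09) or 5 (3.10) or treated replicate 1 (3.38) or 4 (3.00). The miR-144 call was lost without vehicle replicate 3 (1.50) or 5 (1.52) or treated replicate 1 (1.90), 2 (1.93) or 4 (1.31). The vehicle array that failed quality control held a miR-451 of 10.22, above all 4 that passed. With it and the other failed arrays kept, the miR-451 difference was 2.67 (adjusted p = 0.0883).

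Some other red cell miRNAs and markers of other cells also passed as higher on pioglitazone 63 at day 28 in males, where 37.2% of all miRNAs were called. Of the 6 red cell miRNAs outside the cluster, several of them broadly expressed, 2 rose, miR-15b by 4.59 and miR-19b by 4.32. The others did not pass, with differences from 0.50 for miR-16 to 1.68 for miR-25. The list's median difference was 1.63 against 0.37 for all miRNAs. Their summed level was 11.27 to 12.29 on vehicle and 12.57 to 13.09 on pioglitazone 63. Of the 6 erythroid maturation miRNAs 3 rose: miR-221 by 2.12, miR-223 by 1.80 and miR-210, which hypoxia induces, by 2.14. Of the 4 leukocyte miRNAs 2 rose, miR-142-3p by 1.57 and miR-223, which is in both lists. Their summed levels were 6.71 to 7.84 on vehicle and 7.44 to 9.35 on pioglitazone 63 over all 4. Of the 2 endothelial strands miR-126 rose by 3.90 (summed 4.94 to 8.67 against 8.79 to 10.33). Of the 6 muscle miRNAs 1 rose, miR-499 by 1.36, with summed levels of 6.12 to 14.40 and 8.55 to 15.09. Of the 10 epithelial miRNAs 2 rose, miR-96 by 4.43 and miR-183 by 3.77, with a list median of 0.27. Their part in the rise of the cluster members was not tested.

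At the other dose and drug the same vehicle males gave other values. On pioglitazone 16, miR-451 was 8.69, 8.92, 8.19 and 5.65, a difference of 2.41 from vehicle (SE 1.43, adjusted p = 0.336), while miR-144 was 4.01, 5.11, 5.11 and 3.31, a difference of 0.11 (95% interval -1.50 to 1.72). Without the dim arrays, which leaves 1 vehicle male, the miR-451 difference was 0.044 (adjusted p = 0.998), and with the array median in the model it was 1.09 (adjusted p = 0.654). miR-144* on pioglitazone 16 differed by 0.01 (95% interval -0.61 to 0.63), so no member was called where 12.6% of all miRNAs were.

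On rosiglitazone, miR-451 was 8.99, 4.92, 4.49, 4.52 and 3.77, with 1 rat far above the others. The difference from vehicle was -0.11 (95% interval -2.80 to 2.58) for miR-451, 0.84 (-0.68 to 2.37) for miR-144 and 0.25 (-0.34 to 0.84) for miR-144*, with 24.6% of all miRNAs called. Here 3 of 5 arrays had a median under 4.5. Pioglitazone and rosiglitazone were given at different doses, so their values stand side by side without a comparison. Between the 2 pioglitazone doses no member passed in the day 28 males (63 minus 16: 1.21 for miR-451, 95% interval -1.48 to 3.90; 1.74 for miR-144, 0.22 to 3.27, adjusted p = 0.188), with 8.97% of all miRNAs called.

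The pioglitazone 63 difference in miR-451 at day 28 was not the same in males and females. Females on vehicle had 8.18, 9.56, 9.64, 8.62 and 10.01, and on pioglitazone 63 they had 8.26, 3.58, 7.82, 5.64 and 9.56. The drug groups thus differed by -2.23 in females (adjusted p = 0.999) and 3.62 in males, and the difference between these was 5.85 (SE 1.86, adjusted p = 0.0137), in a test where 26.6% of all miRNAs passed. For miR-144 the corresponding value was 2.37 (adjusted p = 0.0852). The miR-451 call was lost without the dim arrays, which leaves 1 vehicle male whose spread is then taken from the other groups (2.39, adjusted p = 0.636), without female pioglitazone 63 replicate 2 (5.00, adjusted p = 0.0517) and without male vehicle replicate 5 (5.33, adjusted p = 0.0501). On pioglitazone 16 the same test gave 5.53 for miR-451 (adjusted p = 0.0714), with 8.64% of all miRNAs called.

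Within males, the pioglitazone 63 effect at day 28 also differed from the mean of its effects at days 3 and 90, by 5.37 for miR-451 (SE 1.63, adjusted p = 0.00758) and 3.17 for miR-144 (SE 0.92, adjusted p = 0.00542), with 30.9% of all miRNAs called. For miR-144* it differed by 0.86 (adjusted p = 0.0558). At day 3 the pioglitazone 63 males were 2.06 below vehicle in miR-451, and at day 90 they were 1.45 below, neither of which passed. Without the dim arrays, with 1 vehicle male left at day 28 and its spread taken from the other groups, the differences were 2.31 (adjusted p = 0.571) for miR-451 and 2.35 (adjusted p = 0.333) for miR-144.

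From day 3 to day 28 the members fell furthest in vehicle males, of the 8 combinations of treatment and sex. At day 3 their miR-451 was 11.15, 9.02, 11.90, 11.95 and 10.66, the highest mean of the 24 groups (10.94), and every day 28 vehicle male lay below every day 3 male. The fall to day 28 was 5.49 log2 units (SE 1.36, adjusted p = 0.000555). miR-144 was 6.88, 7.44, 9.26, 9.66 and 7.69 at day 3 and fell by 3.91 (SE 0.77, adjusted p = 1.77e-05), also without overlap. At day 28 replicates 3 and 5 had 3.22 and 3.28, on arrays whose dimmest miRNA was at 2.73 and 2.69, so they lay close to the floor. miR-144* was 3.48, 4.43, 5.10, 5.72 and 4.77 at day 3 against 3.80, 3.20, 3.20 and 3.32 at day 28, and it fell by 1.32 (SE 0.30, adjusted p = 0.000183). In this contrast 35.5% of all miRNAs were called lower and 18.9% lay lower without overlap. The miR-144 fall was called under every alternative run; without the dim arrays, which leaves 1 vehicle male at day 28, the falls of miR-451 (-3.40, adjusted p = 0.189) and miR-144* (-0.90, adjusted p = 0.151) were not. The miR-144* fall was also not called with arrays centred (-0.11) or under quantile normalization (-0.67).

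By day 90 the vehicle males had miR-144 levels of 6.24, 6.74, 7.37, 7.82 and 6.82, and their miR-451 was 3.96, 4.33, 9.70, 9.24 and 7.34. Among these 5 rats miR-451 fell into low and high values although all 5 array medians were between 5.15 and 5.53. Against day 3, miR-451 was lower by 4.02 (log2 difference -4.02, SE 1.28, adjusted p = 0.0336), where 6.98% of all miRNAs were called lower. That call was lost without any 1 of 4 vehicle males at day 3 (replicates 1, 3, 4 and 5) or 3 at day 90 (replicates 1, 2 and 5), with differences of -4.13 to -3.28, and with only these groups fitted (adjusted p = 0.0804) or only brighter miRNAs tested (adjusted p = 0.112). Set against days 3 and 90 together, the day 28 vehicle males were lower by 3.32 in miR-144 (difference -3.32, adjusted p = 2.66e-05), with -0.99 for miR-144* (adjusted p = 0.00105) and -3.48 for miR-451 (adjusted p = 0.0111), and 35.9% of all miRNAs were called lower. The miR-451 call was lost without vehicle replicate 3 (-2.94) or 5 (-2.96) of day 28, and no member passed without the dim arrays (-2.92, -0.57 and -1.38). The miR-144* difference turned to 0.12 higher with arrays centred on their medians and was -0.54 under quantile normalization (adjusted p = 0.358), and that of miR-451 was -1.04 with the array median in the model (adjusted p = 0.429).

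Listed miRNAs moved with that difference as well, where 35.9% of all miRNAs were called lower. Against days 3 and 90, 4 of 6 red cell miRNAs outside the cluster (median -1.85, against -0.66 for all miRNAs), 3 of 6 erythroid maturation, 3 of 4 leukocyte, 2 of 2 endothelial, 3 of 6 muscle and 1 of 10 epithelial miRNAs were lower in vehicle males at day 28, and 0 were higher. The leukocyte sum in vehicle males was 9.03 to 9.90 at day 3, 6.71 to 7.84 at day 28 and 9.21 to 10.12 at day 90. Their endothelial sum was 8.90 to 11.47, 4.94 to 8.67 and 10.30 to 11.60 at the same days. For muscle it was 11.24 to 16.29, 6.12 to 14.40 and 10.92 to 13.35. Their part in the differences of the cluster was not tested.

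Males on pioglitazone 16 also had less miR-144 at day 28 than at their other days. Their miR-144 at day 28 was lower by 3.26 than at days 3 and 90 (difference -3.26, SE 0.68, adjusted p = 9.1e-05), and miR-144* differed by -0.99 (SE 0.26, adjusted p = 0.00281), with 14.3% of all miRNAs called lower. The miR-451 difference was -1.03 (95% interval -3.41 to 1.34), and its test against the day difference of vehicle males did not pass (2.44, adjusted p = 0.468). Only 1 of these 4 day 28 arrays had a median under 4.5, and the miR-144 call was kept under every alternative run. The miR-144* call was lost with arrays centred on their medians (-0.70) and under quantile normalization (-0.69). Of the listed miRNAs 3 of 4 leukocyte (median -1.63, against -0.40 for all miRNAs), 2 of 6 erythroid maturation, 1 of 2 endothelial, 1 of 6 muscle, 0 of 10 epithelial and 0 of 6 red cell miRNAs were lower in this comparison, and 0 were higher. The leukocyte sum was 8.79 to 9.73 at day 3, 7.22 to 8.71 at day 28 and 9.34 to 11.33 at day 90, and the endothelial sum 9.90 to 11.29, 5.97 to 10.25 and 9.70 to 11.55. For muscle it was 10.24 to 15.47, 9.13 to 12.42 and 8.82 to 15.71. Their part in the miR-144 and miR-144* differences was not tested. In the males on pioglitazone 63, no member passed this comparison, nor did any other miRNA after adjustment (0 of 301, 0%, called by limma); the differences were -0.14 for miR-144, -0.13 for miR-144* and 1.90 for miR-451 (unadjusted p = 0.09).

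Vehicle males were also below vehicle females at day 28. miR-451 in males lay below every female value, with a difference of -3.75 (SE 1.36, adjusted p = 0.0161). Females had miR-144 levels of 5.42, 6.52, 6.59, 6.24 and 6.20, and the male difference was -1.92 (SE 0.77, adjusted p = 0.03). For miR-144* it was -0.58 (adjusted p = 0.0991) and did not pass. In this comparison 32.2% of all miRNAs were called lower in males and 24.6% lay lower without overlap. Both calls were lost without the dim arrays, which leaves 1 vehicle male whose spread is taken from the other groups (miR-451 -1.46, miR-144 -1.52), with the array median in the model (-1.71 and -1.43), and without male vehicle replicate 3 (-3.22 and -1.57) or 5 (-3.23 and -1.59), and that of miR-144 also without female vehicle replicate 2 (-1.84) or 3 (-1.82). The miR-144 call was also lost with arrays centred (-0.99) and under quantile normalization (-1.34). Keeping the failed arrays ended the miR-451 call as well (-2.80, adjusted p = 0.0603). Listed miRNAs were lower in these males too: 3 of 6 red cell miRNAs outside the cluster (median -1.73, against -0.42 for all miRNAs), 3 of 6 erythroid maturation, 3 of 4 leukocyte, 2 of 2 endothelial, 1 of 6 muscle and 2 of 10 epithelial, with 0 higher. The leukocyte sum was 8.96 to 9.53 in females and 6.71 to 7.84 in males, the endothelial sum 9.66 to 10.61 and 4.94 to 8.67, and the muscle sum 10.49 to 12.98 and 6.12 to 14.40. Their part in the difference of the cluster was not tested. Over all treatments and days the sexes differed by 0.04 for miR-144, 0.03 for miR-144* and 0.13 for miR-451 (95% interval -0.62 to 0.88), and no member passed where 12.3% of all miRNAs did.

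At day 90 miR-144* differed between the 2 pioglitazone doses in males. miR-144* was 4.70, 4.73, 5.31, 4.87 and 4.70 on 16 mg/kg and 4.02, 3.70, 3.70, 3.73 and 3.52 on 63 mg/kg, without overlap. On 63 mg/kg the values from 3.52 to 3.73 lay within 1 log2 unit of the dimmest miRNA on their arrays, close to the floor. Every rat on the lower dose was above every rat on the higher dose, and the difference, 63 minus 16, was -1.13 (SE 0.28, adjusted p = 0.0335). It was the only miRNA called of the 301 (0.332%), although 3.32% did not overlap. miR-144 was 6.67, 8.12, 8.22, 7.59 and 7.72 on 16 mg/kg and 5.25, 5.34, 5.15, 3.95 and 6.06 on 63 mg/kg. These groups did not overlap either, and the difference of -2.51 (SE 0.73) had the second smallest p of the 301 but did not pass (adjusted p = 0.119); with only these groups fitted it did (adjusted p = 0.0262). For miR-451 the values were 9.60, 9.95, 11.09, 10.01 and 3.75 on 16 mg/kg and 8.26, 5.51, 6.56, 3.60 and 3.42 on 63 mg/kg. The single low rat on 16 mg/kg, replicate 5, had an array median of 3.81. The 2 lowest rats on 63 mg/kg, replicates 4 and 5, were also on dim arrays, with medians of 3.86 and 3.90. The miR-451 difference was -3.41 (SE 1.28, adjusted p = 0.339), and -3.39 without the dim arrays (adjusted p = 0.496).

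The miR-144* dose call lay close to the threshold. It was lost when 1 of 8 of the 10 rats was left out (pioglitazone 16 replicates 1, 2, 3 and 4 and pioglitazone 63 replicates 2, 3, 4 and 5), with differences of -1.17 to -1.02, and without the dim arrays (-1.10, adjusted p = 0.217), with arrays centred (-0.72, adjusted p = 0.604) and under quantile normalization (-1.02, adjusted p = 0.397). No listed miRNA passed in this comparison. The summed leukocyte level was 9.34 to 11.33 on 16 mg/kg and 8.89 to 10.08 on 63 mg/kg, the muscle level 8.82 to 15.71 and 10.43 to 15.86, and the endothelial level 9.70 to 11.55 and 9.59 to 11.47.

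Against vehicle at day 90, where limma called 0% of miRNAs in males on any of the treatments, miR-144 on pioglitazone 63 lay below every vehicle rat (difference -1.85, SE 0.73, unadjusted p = 0.0123, adjusted p = 0.885). This lack of overlap was shared by 1.33% of all miRNAs. Array medians were under 4.5 in 2 of the 5 pioglitazone 63 males and 0 of the 5 vehicle males. Without the dim arrays the miR-144 difference was -1.76. miR-144* on pioglitazone 16 lay above every vehicle male, whose values were 4.07, 4.00, 4.49, 3.93 and 3.74 (difference 0.82, SE 0.28, unadjusted p = 0.00439, adjusted p = 0.319); 2.66% of all miRNAs did not overlap there. On rosiglitazone miR-144 was 4.68, 6.01, 4.58, 7.03 and 5.26, a difference of -1.49 (95% interval -2.93 to -0.05, adjusted p = 0.999).

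The pioglitazone 16 effect on miR-144* in males differed between days 90 and 3 by 1.63 (SE 0.40, adjusted p = 0.0248), and it was the only miRNA called (0.332%). At day 3 the treated males had 3.55, 3.93, 4.35, 3.50 and 4.10, which was 0.81 below vehicle (difference -0.81, SE 0.28, adjusted p = 0.256). Neither effect passed alone. The call was lost without 1 of 7 of the 20 rats (vehicle day 3 replicates 3 and 4, vehicle day 90 replicates 4 and 5, treated day 3 replicates 1 and 4, treated day 90 replicate 3; 1.37 to 1.60), with arrays centred (1.51), under quantile normalization (1.52) and with only these groups fitted (adjusted p = 0.0735).

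Ordered by level, the 24 groups formed a near-continuous series for each member. Group means of miR-451 ran from 5.34 in rosiglitazone males at day 28, followed by vehicle males at day 28 with 5.45, to 9.64 in rosiglitazone females at day 3 and 10.94 in vehicle males at day 3. The widest of the 23 steps between neighbours was the last, of 1.30, close to the SE of 1.28 of a difference between groups of 5, so neighbours did not differ beyond their spread. For miR-144 the order ran from 4.28 in vehicle males and 4.39 in pioglitazone 16 males at day 28 to 7.79 in vehicle females and 8.19 in vehicle males at day 3, with a widest step of 0.74 against an SE of 0.73. The lowest miR-144* means were those of the same day 28 male groups, 3.38 and 3.39, and the highest was 4.86 in pioglitazone 16 males at day 90, with no step over 0.24.

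The members moved together only in part. With group means subtracted, the Pearson correlation over 116 arrays was 0.52 between miR-144 and miR-451, 0.26 between miR-144* and miR-451, and 0.19 between miR-144 and miR-144*, although the last pair comes from one hairpin. Over the 93 arrays with a median of at least 4.5 these were 0.47, 0.53 and 0.43. With each array centred on its median they were 0.31, -0.16 and 0.31, so the sign for miR-144* and miR-451 depended on the scaling. The arrays share labelling and brightness, and these values are descriptions without a test.

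The miRNA most like the cluster across arrays was the leukocyte miR-142-5p, by the mean of its correlations with the 3 members (0.49 over 116 arrays; 0.70 with miR-451 alone). It was followed by miR-667* (0.44), miR-214 (0.42), miR-152 (0.40) and miR-455* (0.39). With arrays centred on their medians miR-667* became first, and the others took ranks 13, 74, 170 and 43. Over the 24 group means miR-152 and miR-214 (0.68 each) and miR-150 (0.66) were the most alike.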

How the data were processed

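Per the labels' protocols, 0.1 µg of RNA from each rat was labelled with Cy3 for single-channel Agilent miRNA arrays. The deposited table holds log2 values of 301 miRNAs on 119 arrays, prepared by the authors with RMA and limma per the submitters' processing notes; versions are not given. The design text gives the low pioglitazone dose as 13 and the labels as 16 mg/kg, which was used. Arrays labelled as failing quality control were left out. One mean for each of 24 groups was fitted with limma 3.58.1 in R 4.3.3 (92 residual and 2.33 prior degrees of freedom), 66 contrasts were taken, and p-values were adjusted within each contrast over 301 miRNAs. The script was tested on simulated data. No depth exists for arrays; their number limits the precision. The labels name no batch. Named miRNAs are the members, the listed miRNAs, the 5 most like the members over arrays and the 3 over group means. The members and lists were chosen with earlier results of these data known.

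Deviations of same-numbered treated and vehicle rats had correlations of -0.768 to 0.688. Their means by comparison ran from -0.359 to 0.286, with a median of -0.0193, so same-numbered rats did not deviate together throughout. All 5 pairs exceeded 0.1 only for pioglitazone 63 against vehicle in females at day 90. The replicate number was used as a block only as an alternative. The other alternatives were the failed arrays kept, other scalings, brighter miRNAs only, fewer groups in the fit, each replicate left out and, chosen after seeing the data, dim arrays left out.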

Additional observations from a re-analysis of the deposited data

Results flagged for a closer look

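In 69 sets of values (23 groups of 4 or more arrays for each of 3 members), 7 held a member value far from its group (10.1%). The limit used is passed in about 1 in 20 sets only when values follow a normal distribution. It was not applied to the other miRNAs, and sets from the same arrays are not independent, so the share has no background here. miR-144 was 8.32 in pioglitazone 63 males at day 28, replicate 4, with the others at 5.10 to 5.95. miR-144* was 5.31 in pioglitazone 16 males at day 90, replicate 3 (others 4.70 to 4.87), and 5.78 in rosiglitazone males at day 90, replicate 3 (others 3.96 to 4.38). miR-451 was 4.71 in pioglitazone 16 females at day 90, replicate 1 (others 7.68 to 8.56), and 3.75 in pioglitazone 16 males at day 90, replicate 5 (others 9.60 to 11.09). It was 8.99 in rosiglitazone males at day 28, replicate 1 (others 3.77 to 4.92), and 3.745 in rosiglitazone males at day 90, replicate 3 (others 7.46 to 8.72). Of the 3 low miR-451 values, 2 were on arrays with a median of 3.81 or 3.80 and the other on one of 4.53; the high miR-144* of rosiglitazone males was on the array of median 3.80.

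Drug effects differed between groups of rats in 4 tests. For miR-451 the pioglitazone 63 effect at day 28 was 5.85 higher in males than in females (adjusted p = 0.0137). In that test 26.6% of all miRNAs were called. In males the miR-451 effect was 5.37 higher at day 28 than the mean of days 3 and 90 (adjusted p = 0.00758). For miR-144 this difference was 3.17 (adjusted p = 0.00542), and 30.9% of all miRNAs were called. Without the dim arrays, which leaves 1 vehicle male at day 28, the miR-451 differences were 2.39 and 2.31, and that of miR-144 was also smaller. For miR-144* the pioglitazone 16 effect in males was 1.63 higher at day 90 than at day 3 (adjusted p = 0.0248). It was the only miRNA called there (0.332%).

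The vehicle male array of day 28 that failed quality control, replicate 2, held a miR-451 of 10.22, while the 4 that passed held 3.86 to 7.54.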

How the results depend on the processing

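Leaving out the 23 dim arrays, which leaves 1 vehicle male at day 28, gave for pioglitazone 16 in males at day 28 -0.16 (miR-144) and -0.53 (miR-144*), for pioglitazone 63 1.07 (miR-144) and 1.21 (miR-451), and for rosiglitazone -0.10 (miR-144*). It gave 2.39 for the sex difference of the pioglitazone 63 effect, 2.35 (miR-144) and 2.31 (miR-451) for its day difference, and -1.10 for the miR-144* dose difference at day 90. Vehicle males gave -0.90 (miR-144*) and -3.40 (miR-451) for day 28 against 3, -2.92, -0.57 and -1.38 against days 3 and 90, and -1.52 (miR-144) and -1.46 (miR-451) against females; over all groups miR-451 at day 28 gave -0.92. Centring arrays gave, in males at day 28, -0.49 (miR-144) and -0.60 (miR-144*) for pioglitazone 16 and 1.29 (miR-144) and -0.061 (miR-144*) for pioglitazone 63, then -0.72 for the dose difference, 1.51 for the pioglitazone 16 day difference, -0.11 and 0.12 for miR-144* in vehicle males (against day 3, and days 3 and 90), -0.70 on pioglitazone 16, -0.99 for miR-144 in males against females and 0.17 for miR-144* over all groups. Quantile normalization gave 1.41 (miR-144, pioglitazone 63), 0.50 (miR-451, rosiglitazone), -1.02 (dose), 1.52 (day), -0.67 and -0.54 (miR-144*, vehicle males), -0.69 (pioglitazone 16), -1.34 (miR-144, sexes) and 0.14 (miR-144*, all groups). The array median as a covariate gave -0.21 (miR-144) and -0.0069 (miR-144*) for pioglitazone 16, 1.56 (miR-144) and 2.38 (miR-451) for pioglitazone 63, -1.04 (miR-451, vehicle males, day 28 against 3 and 90), -1.43 (miR-144) and -1.71 (miR-451) between sexes and -0.52 (miR-451, all groups). Fitting only the groups compared gave 1.85 (miR-144, pioglitazone 63), a called -2.51 for miR-144 between doses (adjusted p = 0.0262), 1.63 (miR-144*, pioglitazone 16 by day) and -4.02 (miR-451, vehicle males, day 90), and the last was also lost among brighter miRNAs (-4.02), which exclude miR-144*. Keeping the failed arrays gave 2.67 and -2.80 for miR-451. The replicate block gave 1.85 (miR-144, pioglitazone 63) and -0.029 (miR-144*, pioglitazone 16) and changed no other call of a reported member difference. The count of 2 member calls against vehicle became 1 with failed arrays kept, centring, quantile normalization, only the groups compared or the replicate block, and 0 with the covariate, without the dim arrays or without male day 28 arrays, which removes those comparisons.

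Leaving out 1 replicate gave, in males at day 28, -0.24 to 0.66 (miR-144) and -0.11 to 0.15 (miR-144*) on pioglitazone 16, 1.31 to 2.40 (miR-144) and 3.00 to 4.32 (miR-451) on pioglitazone 63 and -1.02 to 0.59 (miR-451) on rosiglitazone. It gave -1.20 to -1.02 for the dose difference, 5.00 to 6.55 for the sex difference of the effect, 1.37 to 1.93 for miR-144* by day, -4.72 to -3.28 and -4.17 to -2.94 for miR-451 in vehicle males, and -2.47 to -1.57 (miR-144) and -4.45 to -3.22 (miR-451) between sexes. One further call appeared, miR-144* on pioglitazone 16 in males at day 3 (-1.12, adjusted p = 0.0313 without vehicle replicate 1). Among the other member differences 3 calls appeared: with failed arrays kept, miR-144 for the sex difference of the pioglitazone 63 effect at day 28 (2.56, adjusted p = 0.0495) and miR-144* for its day difference in males (0.89, adjusted p = 0.0349), and without the dim arrays miR-451 for the day 90 against day 3 difference of the pioglitazone 16 effect in males (5.53, adjusted p = 0.0323). The cause of these shifts was not tested. miR-144* near the floor, miR-144 near it in some day 28 males and few vehicle males limit what the arrays can show.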
